A study of Drosophila melanogaster with 14 samples.

Results

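The maltase and alpha-glucosidase genes of Drosophila were followed on whole-fly arrays of the mitochondrial mutant sesB1 and of wild-type flies. The members were 10 genes chosen by name, Mal-A1, Mal-A2, Mal-A3, Mal-A4, Mal-A5, Mal-A7, Mal-A8, Mal-B1, Mal-B2 and tobi, and each of the 10 had 1 probeset of its own among the 18769 probesets tested, which represent 11981 genes with a probeset of their own. sesB is an X-linked gene for the adenine nucleotide translocase, the carrier that swaps ADP for ATP at the inner membrane of mitochondria, and sesB1 is a point mutation in it. RNA was taken from sesB1 females (4 arrays), wild-type females (3 arrays), sesB1 males (4 arrays) and wild-type males (3 arrays). The sesB1 flies were F1 progeny of Canton S sesB1 mothers and Oregon R sesB1 fathers, and the wild-type flies were F1 progeny of a cross of the same strains without the mutation. All flies were kept at 25 degrees Celsius and females were virgin. The sample labels and the paper give an age of 2 days, and the series description gives a day less. By the paper each RNA came from a batch of flies, so an array is a pool of animals. The labels call the arrays of a group biological replicates, but the paper's methods describe RNA isolation in triplicate, so whether all 4 sesB1 arrays of a sex come from separate isolations is not known. The signals are log2 values from which the median of the 14 arrays has been subtracted, probeset by probeset. They give differences between arrays, and neither the brightness of a probeset nor an order of levels between genes can be read from them.

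Alpha-glucosidases split glucose from the ends of maltose, sucrose and short starch fragments. In the fly, the maltases encoded by the Mal-A genes are digestive enzymes that act largely in the midgut, where they finish the breakdown of starch that amylase begins. Expression of digestive carbohydrases in Drosophila is known to be lowered by dietary sugar. tobi (target of brain insulin) encodes an alpha-glucosidase of the gut and fat body, and is known for its response to insulin-like peptides and to the adipokinetic hormone, the fly counterpart of glucagon.

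By the RefSeq annotation of the Release 6 assembly, Mal-A1 to Mal-A8 form a run of neighbouring genes on chromosome arm 2R, with Mal-A6 between Mal-A5 and Mal-A7. Mal-A1, Mal-A2 and Mal-A3 were first described as the larval visceral protein genes LvpH, LvpD and LvpL. Mal-B1 and Mal-B2 neighbour each other on arm 2L, and tobi lies alone on arm 3R. Gene spans overlap at 3 members, Mal-A1 with Cyp4e1, Mal-A8 with mtt and tobi with rha.

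Within groups, r between arrays over all probesets lay between 0.855 and 0.982. The probeset of sesB itself was at a log2 difference of 0.02 (adjusted p = 0.908) in females and 0.00 (adjusted p = 0.987) in males, which is no check of the labels, since a point mutation need not change the amount of transcript. Some arrays held more transcripts typical of the other sex. Over 11 accessory gland genes, whose products belong to the male ejaculate, the mean was -2.16 and -4.06 in sesB1 female arrays 4 and 2, against -5.67 and -5.74 in sesB1 female arrays 1 and 3 and -5.77 to -5.61 in wild-type females. Over the 3 yolk protein genes, the mean was -2.69 in sesB1 male array 4 and -7.57 to -7.34 in the other sesB1 males, and -1.30 in wild-type male array 2 against -7.57 and -7.62 in wild-type male arrays 1 and 3. Where a call changed without these 4 arrays, both values are given.

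In males, 9 of the 10 members were higher in sesB1 than in wild-type flies at an adjusted p under 0.05 and none was lower. Over all probesets 11.1% were called higher and 10.8% lower. All 9 changed at least 2-fold, which 1.38% of all probesets did in the same direction. The arrays of the groups did not overlap for any of the 10 members in males, with each sesB1 array above each wild-type array, where 14.4% of all probesets were separated in that direction. In females, 5 members were higher in sesB1 and 1 was lower, while 13.4% of all probesets were called higher and 18.9% lower. Only 3 of the 5 passed 2-fold, where 3.05% of all probesets did so upward. The arrays did not overlap for 4 members that were higher and 1 that was lower, beside 16.1% and 22.1% of all probesets. The median log2 fold change of the members was 1.58 in males and 0.84 in females, against -0.01 and 0.01 over all probesets. After quantile normalization of the arrays the 9 calls in males remained, but in females 3 of 6 remained, those of Mal-A3, Mal-A4 and Mal-B2, so that females had 3 higher and 0 lower. That step also lowered the calls over all probesets in either direction, from 32.2% to 15.7% in females and from 21.9% to 19.2% in males. The loss of female calls among the members was thus near that of all probesets. In RNA of whole flies, fewer cells of a type and less RNA per cell cannot be told apart.

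**Figure D1:**
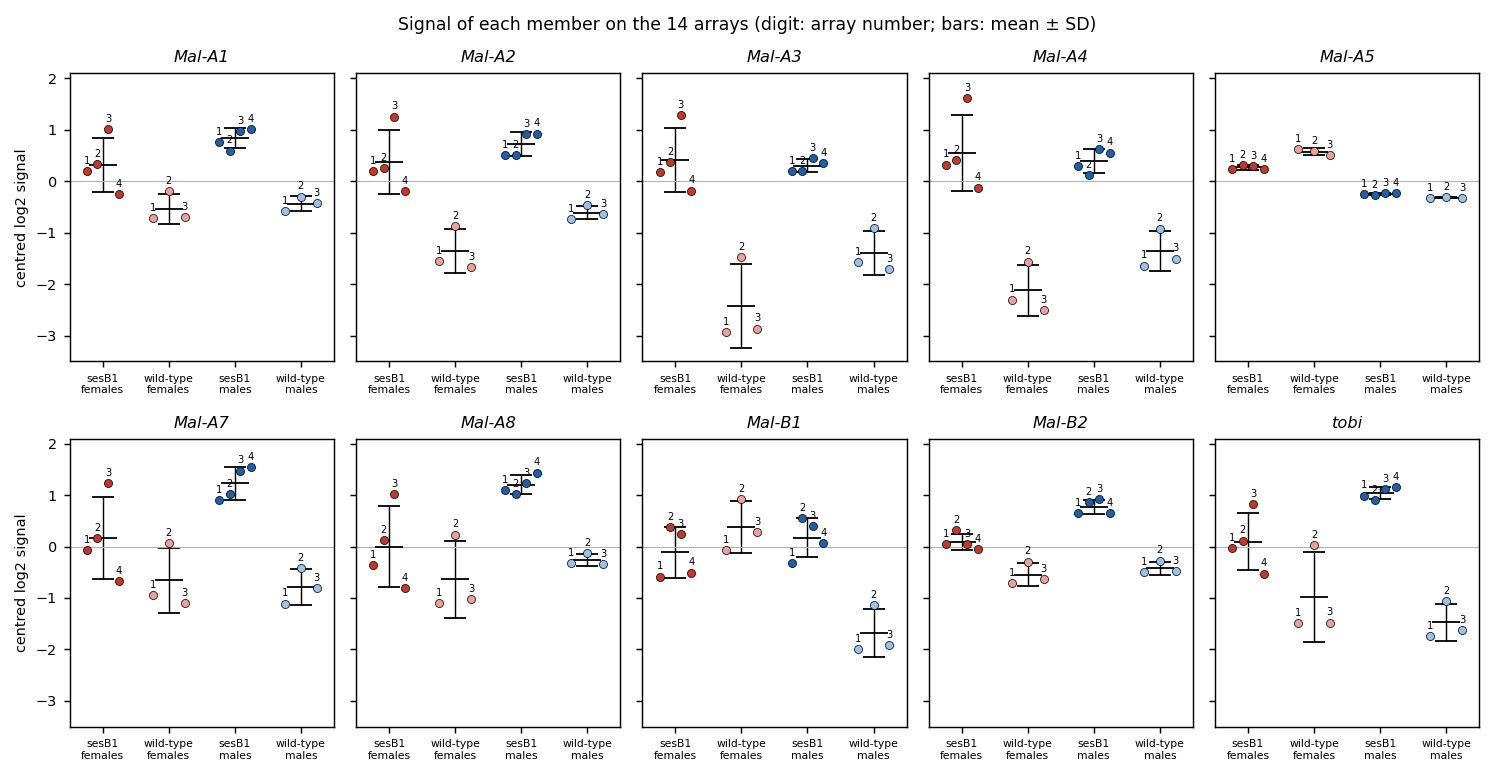
Centred log2 signal (vertical axis, the same in all panels) of each of the 10 members on the 14 arrays, as points numbered by array, with the mean and SD of each group as bars. In males the sesB1 arrays sit above the wild-type arrays in all 10 panels, while in females the groups overlap for Mal-A1, Mal-A7, Mal-A8, Mal-B1 and tobi, and Mal-A5 runs the other way.

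Mal-A2, Mal-A3 and Mal-A4, neighbouring maltase genes of the cluster, were the members that both passed the test and rose at least 2-fold in each sex. Mal-A3 stood at 0.18, 0.37, 1.29 and -0.18 in sesB1 females, against -2.94, -1.48 and -2.87 in wild-type females. It stood at 0.20, 0.20, 0.45 and 0.36 in sesB1 males, against -1.57, -0.92 and -1.70 in wild-type males. No array of one genotype reached the range of the other in either sex, and in both sexes array 2 was the highest of the wild-type arrays. Mal-A3 was 7.18-fold higher in sesB1 females (log2 fold change 2.84, 95% interval 1.91 to 3.78, adjusted p = 0.000855) and 3.24-fold higher in sesB1 males (1.70, interval 1.33 to 2.06, adjusted p = 6.2e-05).

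Mal-A4 stood at 0.32, 0.42, 1.61 and -0.12 in sesB1 females, against -2.30, -1.56 and -2.50 in wild-type females. In sesB1 males it stood at 0.29, 0.12, 0.62 and 0.56, against -1.64, -0.92 and -1.50 in wild-type males. The groups were again separate in both sexes, with sesB1 female array 3 the highest of all 14. Mal-A4 was 6.40-fold higher in sesB1 females (log2 fold change 2.68, interval 1.82 to 3.54, adjusted p = 0.000772) and 3.37-fold higher in sesB1 males (1.75, interval 1.36 to 2.14, adjusted p = 7.21e-05).

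Mal-A2 stood at 0.20, 0.26, 1.26 and -0.20 in sesB1 females, against -1.55, -0.87 and -1.66 in wild-type females. It stood at 0.52, 0.51, 0.92 and 0.93 in sesB1 males, against -0.73, -0.47 and -0.64 in wild-type males. The arrays of the 2 genotypes did not overlap in either sex. The rise was 3.34-fold in sesB1 females (log2 fold change 1.74, standard error (SE) 0.32, adjusted p = 0.00296) and 2.51-fold in sesB1 males (1.33, SE 0.12, adjusted p = 4.77e-05). The female call of Mal-A2 was lost after quantile normalization (1.46, adjusted p = 0.111).

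Mal-A1, the maltase gene at the end of the cluster, averaged 0.32 ± 0.53 in sesB1 females (SD, n = 4) and -0.54 ± 0.30 in wild-type females (SD, n = 3). The female groups overlapped, because sesB1 array 4, at -0.25, lay below wild-type array 2, at -0.19. Its female rise of 1.81-fold (log2 fold change 0.86, adjusted p = 0.0346) was lost in 4 of the 7 fits that left out an array, those without wild-type array 1 or 3 or sesB1 array 1 or 2 (adjusted p up to 0.124), and after quantile normalization (0.83, adjusted p = 0.285). In males Mal-A1 stood at 0.76, 0.60, 0.97 and 1.02 in sesB1 flies, against -0.59, -0.30 and -0.42 in wild-type flies, with no overlap. The male rise was 2.41-fold (1.27, SE 0.11, adjusted p = 3.5e-05). Cyp4e1, whose span overlaps Mal-A1, was also higher in sesB1 flies, by 0.84 (adjusted p = 0.00231) in females and 0.71 (adjusted p = 0.000235) in males, of which the female call was lost after quantile normalization (0.31, adjusted p = 0.162).

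Mal-A7 and Mal-A8, maltase genes at the other end of the cluster, rose in males and did not pass the test in females. Mal-A7 stood at 0.91, 1.01, 1.48 and 1.54 in sesB1 males, against -1.11, -0.42 and -0.81 in wild-type males. Mal-A8 stood at 1.10, 1.03, 1.24 and 1.44 in sesB1 males, against -0.33, -0.12 and -0.34 in wild-type males. Both genes were thus clearly separated in males, by 4.04-fold for Mal-A7 (log2 fold change 2.01, SE 0.19, adjusted p = 5.01e-05) and 2.76-fold for Mal-A8 (1.46, SE 0.11, adjusted p = 8.69e-06).

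In females the spread within groups was wide for both. Mal-A7 stood at -0.07, 0.17, 1.24 and -0.67 in sesB1 females, against -0.94, 0.07 and -1.10 in wild-type females. Mal-A8 stood at -0.35, 0.12, 1.02 and -0.80 in sesB1 females, against -1.11, 0.23 and -1.03 in wild-type females. For each gene, wild-type array 2 exceeded 2 or more of the sesB1 arrays. The female log2 fold change was 0.83 for Mal-A7 (95% interval -0.14 to 1.79, adjusted p = 0.193) and 0.63 for Mal-A8 (interval -0.38 to 1.64, adjusted p = 0.355), so changes near those of males lay inside the interval of Mal-A8 and just outside that of Mal-A7. mtt, which overlaps Mal-A8, was at -0.02 in females and -0.19 in males and passed neither test.

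Mal-A5, in the middle of the cluster, was the member that fell in sesB1 females. It stood at 0.23, 0.32, 0.29 and 0.23 in sesB1 females, against 0.63, 0.59 and 0.50 in wild-type females. In sesB1 males it stood at -0.26, -0.27, -0.23 and -0.24, against -0.33, -0.30 and -0.33 in wild-type males. Its arrays were separate by genotype in both sexes, but in opposite directions, and all male arrays lay between -0.33 and -0.23. In females it fell by a log2 fold change of -0.31 (SE 0.07, adjusted p = 0.0107). That call was lost after quantile normalization (-0.18, adjusted p = 0.129) and without wild-type female array 1 (adjusted p = 0.0559). In males the log2 fold change was 0.07 (interval -0.07 to 0.20, adjusted p = 0.516), and -0.00179 after quantile normalization.

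Mal-A6, a maltase gene of the same cluster that is not among the 10 members, has a probeset of its own as well. It averaged 0.32 ± 0.59 in sesB1 females and -0.83 ± 0.59 in wild-type females (SD, n = 4 and 3), and 1.01 ± 0.21 in sesB1 males and -0.23 ± 0.06 in wild-type males (SD, n = 4 and 3). Its log2 fold change was 1.16 in females (adjusted p = 0.0293, and 0.219 after quantile normalization) and 1.25 in males (adjusted p = 3.22e-05).

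Mal-B1 and Mal-B2, the pair of maltase genes on arm 2L, differed from each other in females. Mal-B1 stood at -0.58, 0.38, 0.25 and -0.51 in sesB1 females, against -0.07, 0.93 and 0.28 in wild-type females. It stood at -0.32, 0.55, 0.40 and 0.07 in sesB1 males, against -2.0, -1.14 and -1.91 in wild-type males. The wild-type males were thus below all other arrays, while the female groups overlapped. Mal-B1 was 3.63-fold higher in sesB1 males (log2 fold change 1.86, SE 0.24, adjusted p = 0.000356). The female log2 fold change was -0.49 (interval -1.16 to 0.17, adjusted p = 0.265), and came to between -0.72 without wild-type female array 1 and -0.22 without wild-type female array 2.

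Mal-B2 stood at 0.05, 0.32, 0.05 and -0.05 in sesB1 females, against -0.72, -0.29 and -0.63 in wild-type females. It stood at 0.65, 0.86, 0.92 and 0.66 in sesB1 males, against -0.50, -0.28 and -0.48 in wild-type males. Neither sex had an overlap between genotypes. The rise was 1.56-fold in sesB1 females (log2 fold change 0.64, SE 0.13, adjusted p = 0.00406) and 2.29-fold in sesB1 males (1.19, SE 0.09, adjusted p = 1.53e-05).

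tobi had the largest male fold change among the members. It stood at 0.99, 0.90, 1.11 and 1.16 in sesB1 males, against -1.74, -1.06 and -1.63 in wild-type males. In females it stood at -0.03, 0.11, 0.82 and -0.53 in sesB1 flies, against -1.49, 0.03 and -1.48 in wild-type flies. The male groups were well apart, whereas in females wild-type array 2 lay among the sesB1 arrays. tobi was 5.72-fold higher in sesB1 males (log2 fold change 2.52, SE 0.15, adjusted p = 2.21e-06).

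In females the log2 fold change of tobi was 1.07 (interval 0.15 to 2.00, adjusted p = 0.0784), which did not pass the test. Without wild-type female array 2 it was 1.58 (adjusted p = 0.00672), without sesB1 female array 4 it was 1.28 (adjusted p = 0.036), and without the arrays that held transcripts of the other sex it was 1.37 (adjusted p = 0.048), all past the threshold. With all arrays it passed when the 4 groups were fitted jointly (1.07, adjusted p = 0.0216) and with array weights (1.19, adjusted p = 0.0229). The joint fit pools the spread of both sexes, and the SD of tobi was 0.12 and 0.36 in sesB1 and wild-type males against 0.56 and 0.88 in females. After quantile normalization the female value of tobi was 0.88 and did not pass (adjusted p = 0.289). Of the 7 fits that left out an array, only 2 passed (0.82 to 1.58, adjusted p up to 0.262). rha, which overlaps tobi, was at 0.24 in females and -0.15 in males and passed neither test.

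**Figure D2:**
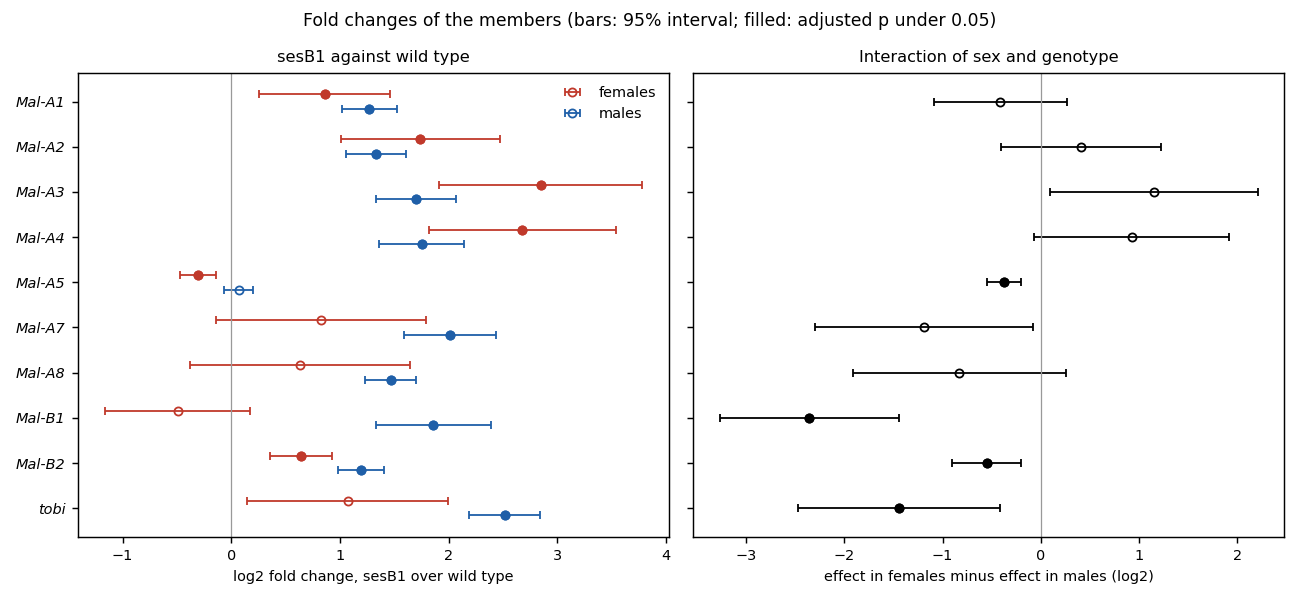
Left, log2 fold change of sesB1 over wild type (horizontal axis) of each member in females and in males. Right, the effect in females minus that in males. Bars are 95% intervals from limma and filled points passed an adjusted p of 0.05, as 9 members did in males, 6 in females and 4 for the difference.

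Whether sesB1 acted differently in the sexes was tested as the interaction of sex and genotype, taken as the female effect minus the male effect. It was negative and past the threshold for 4 members and positive for 0, where 16% of all probesets were called negative and 11.6% positive. The 4 were Mal-B1 (-2.35, interval -3.26 to -1.45, adjusted p = 0.00101), tobi (-1.44, interval -2.47 to -0.41, adjusted p = 0.037), Mal-B2 (-0.55, interval -0.90 to -0.20, adjusted p = 0.0213) and Mal-A5 (-0.38, interval -0.55 to -0.20, adjusted p = 0.00378). The value for Mal-B1 stayed past the threshold in all 14 fits that left out an array (-2.63 to -2.08) and was -3.10 after quantile normalization (adjusted p = 0.000337). The value for tobi lost its call in 10 of those 14 fits (adjusted p up to 0.0893), all but those without wild-type male array 2, wild-type female array 1 or 3 or sesB1 female array 3. It was -0.94 without wild-type female array 2 (adjusted p = 0.0743), -1.31 without the arrays that held transcripts of the other sex (adjusted p = 0.0936) and -1.44 with a robust prior (adjusted p = 0.0694). Mal-B2 lost its call in 3 of the 14, without wild-type male array 1 or 3 or wild-type female array 2 (adjusted p up to 0.0572), and also with array weights (-0.43, adjusted p = 0.062). Mal-A5 lost its call after quantile normalization (-0.18, adjusted p = 0.218), a step that took interaction calls from 27.6% to 9.49% of all probesets.

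For the other 6 members the difference between the sexes did not pass the test. It was 1.15 for Mal-A3 (interval 0.09 to 2.20, adjusted p = 0.103) and 0.92 for Mal-A4 (interval -0.07 to 1.92, adjusted p = 0.166), but after quantile normalization these turned to -0.13 and -0.23. Without wild-type female array 2 the value of Mal-A3 was 1.62 (adjusted p = 0.0101), and without sesB1 female array 4 it was 1.35 (adjusted p = 0.0464). It was -1.19 for Mal-A7 (interval -2.30 to -0.08, adjusted p = 0.11) and -0.83 for Mal-A8 (interval -1.92 to 0.25, adjusted p = 0.263). Without sesB1 female array 3 both passed, at -1.54 (adjusted p = 0.0128) and -1.18 (adjusted p = 0.0453). Mal-A1 was at -0.41 and Mal-A2 at 0.41.

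The sexes were also compared within each genotype. The median of all probesets lay 0.17 higher in females than in males among sesB1 flies and 0.15 higher among wild-type flies as deposited, and within 0.01 of 0 after quantile normalization, so these comparisons depend on scaling. Among sesB1 flies 1 member was higher in females and 5 were lower, beside 43.8% and 21.3% of all probesets. Mal-A5 was higher (0.52, adjusted p = 5.22e-07). Mal-A8 (-1.20, adjusted p = 0.00533), Mal-A7 (-1.07, adjusted p = 0.013), tobi (-0.95, adjusted p = 0.0162), Mal-B2 (-0.68, adjusted p = 4.9e-05) and Mal-A1 (-0.51, adjusted p = 0.0417) were lower, of which Mal-B2 alone passed after quantile normalization. Mal-B2 was also alone in passing without the 4 arrays that held transcripts of the other sex, where Mal-A8 was at -0.79 (adjusted p = 0.0999), Mal-A7 at -0.55 (adjusted p = 0.215), tobi at -0.61 (adjusted p = 0.178) and Mal-A1 at -0.17 (adjusted p = 0.517). Mal-A1 lost its call in 7 of the 14 fits without an array, and tobi in 1, that without sesB1 female array 4 (-0.74).

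Among wild-type flies 2 members were higher in females and 2 were lower, beside 39.4% and 24.7% of all probesets. Mal-B1 was 4.18-fold higher in females than in males of this genotype (2.06, interval 1.38 to 2.75, adjusted p = 3.47e-05). Among sesB1 flies the same difference was -0.29 (interval -0.89 to 0.30, adjusted p = 0.362). Mal-A5 was higher in wild-type females as well (0.89, adjusted p = 3.38e-09). Mal-A3 (-1.04, adjusted p = 0.0247) and Mal-A2 (-0.75, adjusted p = 0.034) were lower, but after quantile normalization neither passed, with 0.26 for Mal-A3 and -0.35 for Mal-A2, and tobi was higher in females there (1.42, adjusted p = 0.01). Without the 4 arrays that held transcripts of the other sex, neither Mal-A3 (-0.80, adjusted p = 0.0987) nor Mal-A2 (-0.68, adjusted p = 0.0589) passed, and omission of wild-type male array 2 or of wild-type female array 1 or 3 also ended both calls.

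Within a group, the members tended to be high or low on the same arrays. The mean of the 10 members was 0.01, 0.28, 0.88 and -0.31 on the sesB1 female arrays, against -1.12, -0.26 and -1.12 on the wild-type female arrays. On the sesB1 male arrays it was 0.48, 0.55, 0.79 and 0.75, against -1.05, -0.59 and -0.98 on the wild-type male arrays. Array 3 of the sesB1 females held the highest value of its group for 7 of the 10 members and array 4 the lowest for 8. Wild-type female array 2 was the highest of its group for 9 members and wild-type male array 2 for all 10. The share of all probesets that were highest or lowest on these arrays was not computed. The median of all probesets was also highest in its group on sesB1 female array 3 (0.14) and lowest on array 4 (0.02). It was highest on wild-type female array 2 (0.08), but lowest on wild-type male array 2 (-0.12).

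Arrays of one number are of different flies, and deviations over all probesets did not pair arrays by number. Pairing by number among the members alone was not tested. Wild-type male array 2 and sesB1 female array 4 are among the arrays with more transcripts of the other sex, and the part of those transcripts in the members' values was not tested. Without both wild-type arrays numbered 2, 9 members were still higher in males and 6 in females, with tobi added to the 5.

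**Figure D3:**
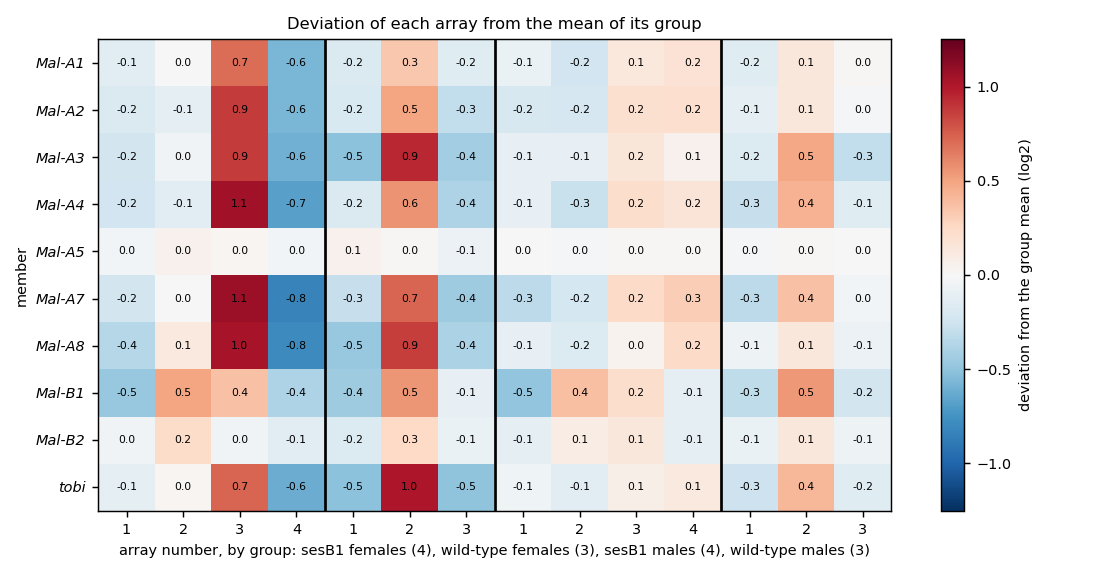
Deviation of each array from the mean of its group (log2, colour and printed value) for the 10 members, with array numbers along the horizontal axis in blocks of sesB1 females, wild-type females, sesB1 males and wild-type males. Columns of one colour show arrays on which most members were high (sesB1 female array 3, both wild-type arrays numbered 2) or low (sesB1 female array 4), while Mal-A5 stayed near 0.

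Pearson's r between members was computed over the 14 arrays, and again after the mean of each group was subtracted. These values describe pairs that share arrays and groups. Over the 14 arrays r ran from -0.491 to 0.989 for the 45 pairs. For Mal-A1, Mal-A2, Mal-A3, Mal-A4, Mal-A7, Mal-A8 and tobi the 21 pairs lay between 0.745 and 0.989, and between 0.870 and 0.983 once group means were removed. With the wild-type female arrays left out, these 21 pairs lay between 0.908 and 0.980 within groups. tobi, on another chromosome, had an r within groups of 0.98 to Mal-A3. Mal-B1 and Mal-B2 were at 0.87 to each other within groups and at 0.43 over the 14 arrays. The 9 pairs with Mal-A5 lay between -0.491 and 0.523 over the 14 arrays and between 0.323 and 0.501 within groups.

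**Figure D4:**
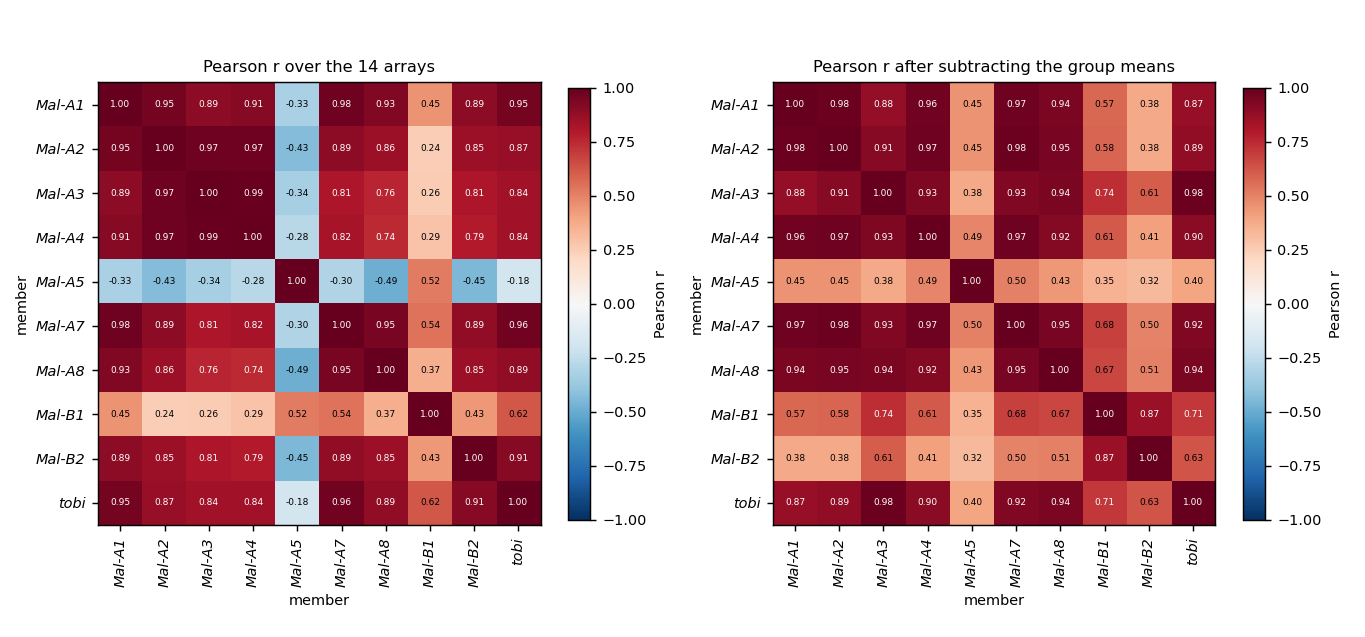
Pearson's r between the members over the 14 arrays (left) and after subtraction of the group means (right), with r as colour and printed value. Mal-A5 and Mal-B1 stand apart on the left, and on the right the other Mal-A genes and tobi form a block at 0.870 and above.

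The genes whose signals were most like those of the members over the 14 arrays were sought among 11947 non-member genes. Here r includes the differences between groups. A gene chosen this way therefore tends to share the change of its member, and its fold changes are given as description only. CG7916 was nearest to both Mal-A3 (r = 0.987) and Mal-A4 (r = 0.990), and itself rose by 2.13 on the log2 scale in females (adjusted p = 0.000215) and by 1.18 (adjusted p = 9.88e-05) in males. CG34040 was nearest to tobi (r = 0.983), with 1.95 in females (adjusted p = 0.0293) and 3.75 (adjusted p = 3.89e-06) in males. CG1208, a predicted sugar transporter, was nearest to Mal-A2 (r = 0.984), CG6028 to Mal-A1 (r = 0.973), CG4377 to Mal-A8 (r = 0.971) and CG6574 to Mal-A7 (r = 0.961).

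Genes with other roles were nearest to the remaining members. Mthfs, which encodes a folate enzyme, was nearest to Mal-B2 (r = 0.975) and DhpD, which encodes dihydropterin deaminase, to Mal-B1 (r = 0.921). Cwc25, a splicing factor gene, was nearest to Mal-A5 (r = 0.996), with -0.89 in females (adjusted p = 0.000312) and 0.16 (adjusted p = 0.124) in males. The mean of the 10 members was most like CG34040 (r = 0.970), CG6028 (0.968), the cytochrome P450 gene Cyp6d5 (0.953), UK114 (0.948) and the glutathione S-transferase gene GstE1 (0.947).

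Other genes that split or build sugars were set beside the members in lists of 10 to 17 measured genes. Their counts as deposited stand beside 13.4% of all probesets called higher and 18.9% lower in females, and 11.1% higher and 10.8% lower in males. Their counts after quantile normalization stand beside 1417 of 18769 probesets higher and 1536 lower in females, and 1856 higher and 1741 lower in males. Of 10 other alpha-glucosidases, amylases and disaccharidases, 6 rose and 1 fell in sesB1 females (median 0.73) and 3 rose and 0 fell in sesB1 males (median 0.16). After quantile normalization these counts were 3 and 1 in females and 3 and 1 in males. Mal-A6, the maltase gene of the cluster described above, is among these 10 genes and was counted as risen in both sexes before that step. Amyrel, a gene related to the amylases, rose by log2 fold changes of 2.42 (adjusted p = 0.000301) in females and 2.33 (adjusted p = 4.13e-07) in males. CG33080 rose by 1.38 in females and 0.89 in males, and Gal, a beta-galactosidase gene, by 1.14 in females (adjusted p = 0.025), a call lost after quantile normalization (0.94, adjusted p = 0.249). GCS1, which encodes a glucosidase that trims glycoproteins in the endoplasmic reticulum and is named here after its value was seen, fell by 0.70 in females (adjusted p = 0.00189).

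Of 10 genes of glycogen and trehalose metabolism, 5 rose and 1 fell in sesB1 males (median 0.25), and 2 rose and 1 fell in sesB1 females (median 0.01), where the female counts are near what the share of all probesets gives for 10 genes. AGBE, the glycogen branching enzyme gene, rose by 1.08 in males (adjusted p = 4.01e-05) and was at -0.09 in females (adjusted p = 0.734), with an interaction of -1.16 (adjusted p = 0.000455). Pgm1, which encodes phosphoglucomutase, rose by 0.55 in males (adjusted p = 0.000208) and 0.32 in females (adjusted p = 0.0319). The hexokinase gene Hex-C rose by 0.49 in males, and Pgm2a fell by 0.31. Hex-A, another hexokinase gene, rose by 0.25 in females, and Tps1, which encodes the trehalose synthase, fell by 0.30 there (adjusted p = 0.0293). After quantile normalization the counts were 4 and 0 in males and 0 and 3 in females, with the calls of Pgm1 (0.14, adjusted p = 0.352) and Hex-A (0.14, adjusted p = 0.283) lost in females and that of Pgm2a (-0.10, adjusted p = 0.312) in males.

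Of 13 sugar transporter genes, 5 rose and 1 fell in sesB1 females (median 0.31) and 5 rose and 1 fell in sesB1 males (median 0.30). The counts were 2 and 0 in females and 4 and 1 in males after quantile normalization. CG1208 rose by 1.34 in females (adjusted p = 0.004) and 0.87 (adjusted p = 0.00158) in males, and sut2 by 0.67 in females and 0.78 in males. CG4607 rose by 1.33 in females (adjusted p = 0.000516), and CG1213 by 0.76 in females and 0.41 in males. Tret1-1, a trehalose transporter gene, rose by 0.46 in males, and Glut1, a glucose transporter gene, fell by 0.48 there. Quantile normalization ended the female calls of CG1208 (1.14, adjusted p = 0.147) and CG1213 (0.35, adjusted p = 0.233) and the male call of Tret1-1 (0.45, adjusted p = 0.0672).

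Of 17 regulators of sugar metabolism, 1 rose and 3 fell in sesB1 females (median -0.11), and 2 rose and 4 fell in sesB1 males (median -0.04), with each count but that of the male decreases near or below the share of all probesets. After quantile normalization the counts were 1 and 0 in females and 1 and 5 in males. Akh, the gene for the adipokinetic hormone, rose by 0.73 in females (adjusted p = 0.00125) and 0.73 (adjusted p = 0.000198) in males. Ilp5, an insulin-like peptide gene, fell by 0.91 in males (adjusted p = 0.000216) and was at 0.00 in females (adjusted p = 0.999), with an interaction of 0.91 (adjusted p = 0.000464). cbt, a sugar-responsive transcription factor gene, fell by 0.33 in females and 0.44 in males, and daw, which encodes an activin-like ligand, fell by 0.44 in males (adjusted p = 0.00105). put, the gene for a receptor of such ligands, fell by 0.61 in females and bigmax, the partner gene of Mondo, by 0.31. The female calls of cbt (-0.32, adjusted p = 0.0706), put (-0.35, adjusted p = 0.23) and bigmax (-0.19, adjusted p = 0.101) were lost after quantile normalization.

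**Figure D5:**
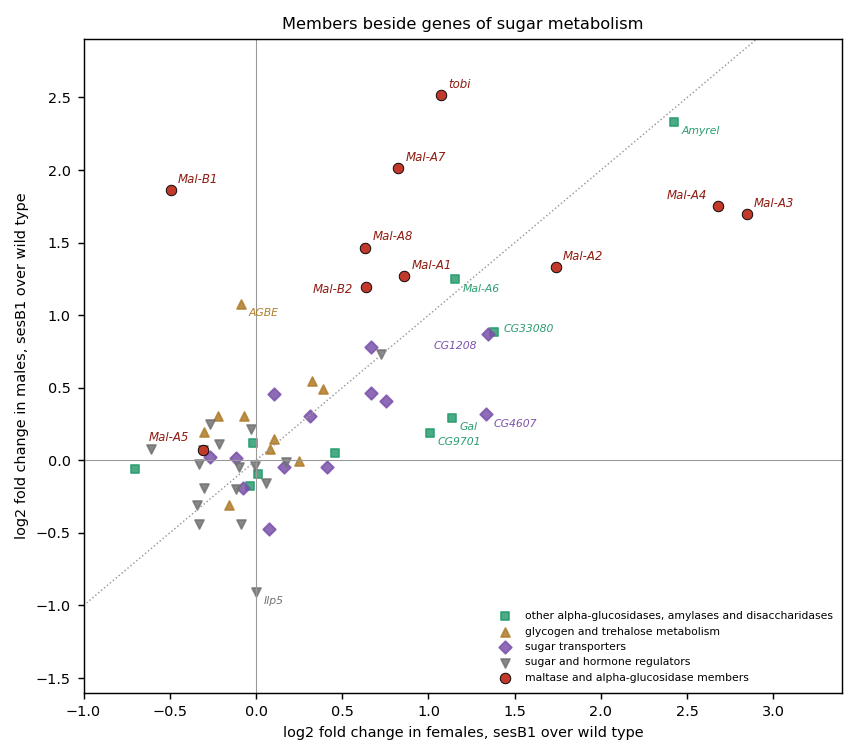
Log2 fold change of sesB1 over wild type in females (horizontal axis) and males (vertical axis) for the 10 members and for 4 lists of other genes of sugar metabolism, with equal changes on the dotted line. Mal-B1 and tobi lie above the line, Mal-A3 and Mal-A4 below it, and Amyrel has the largest change of the listed genes in both sexes.

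Levels of tissue markers were compared because maltases are genes of the gut and tobi also of the fat body. The shares of all probesets given above, 13.4% higher and 18.9% lower in females and 11.1% and 10.8% in males, apply to these counts too. For counts after quantile normalization, the lower numbers of called probesets given with the lists apply. Of 16 midgut genes, 10 were higher and 1 lower in sesB1 females (5 and 0 after quantile normalization), with array means of 0.25 to 0.78 in sesB1 females against -0.27 to -0.09 in wild-type females. In sesB1 males 4 were higher and 6 lower (3 and 7 after quantile normalization), with array means of -0.37 to -0.14 in sesB1 males against -0.20 to -0.04 in wild-type males. Within sesB1 females the midgut mean was highest on array 3 (0.78) and lowest on array 4 (0.25), the arrays on which most members were also highest and lowest. Within sesB1 males it was highest on array 3 (-0.14) and lowest on array 1 (-0.37), as was the mean of the members. In both wild-type groups it was lowest on array 2 (-0.27 in females, -0.20 in males), where most members were highest. By the counts above the midgut list was mixed in sesB1 males, and its part in the members' values was not tested in either sex. Of 9 adult fat body genes, 4 were higher and 2 lower in sesB1 females (2 and 2 after quantile normalization) and 1 was higher and 2 lower in sesB1 males (1 and 0 after quantile normalization).

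The 3 measured genes of larval fat body and serum, Fbp1, Fbp2 and Lsp2, had array means of 0.53 to 0.86 in sesB1 females against -6.04 to -5.68 in wild-type females, and of -0.07 to 0.72 in sesB1 males against -5.52 to -4.42 in wild-type males. All 3 were higher in sesB1 flies of both sexes.

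Markers of the reproductive organs differed by genotype as well. Of 13 ovary and eggshell genes, 3 were higher and 6 lower in sesB1 females (4 and 0 after quantile normalization), with array means of 1.41 to 2.32 in sesB1 females against 2.39 to 2.55 in wild-type females. The lowest was sesB1 female array 3, on which most members were highest. Among wild-type females the highest was array 2 (2.55), on which most members were highest too. Of the 11 accessory gland genes, 1 was higher and 10 lower in sesB1 males (1 and 8 after quantile normalization), with array means of 2.20 to 2.38 in sesB1 males against 2.84 to 2.94 in wild-type males. Of 11 testis genes, 0 were higher and 8 lower in sesB1 males (0 and 2 after quantile normalization), with array means of 1.92 to 2.06 in sesB1 males against 2.32 to 2.38 in wild-type males. The part of the midgut, fat body and reproductive organ values in the members' changes was not tested. No value of 0 signal can be read from centred data, so markers that are absent cannot be named.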

How the data were processed

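Whole-fly total RNA was hybridized to Affymetrix Drosophila 2.0 arrays. By the paper the authors normalized the raw data in Genespring GX, its version, summarisation and filters being details not given in the sources used here. Values deposited by the authors are log2 signals per probeset, and per the files other values stand in the same columns, 30 spreadsheet date serials among 265328 values, which were treated as missing and touched no member. Each of the 18922 complete probesets had a median of 0 over the 14 arrays. Of 18952 probesets, 183 controls were left out. Probesets were named from the platform annotation, updated through RefSeq, with 13646 having 1 symbol, 402 several and 4721 none, and 13543 matched to RefSeq.

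Groups were compared with limma 3.58.1 (lmFit and eBayes, R 4.3.3) on the deposited log2 values, females and males separately, with the interaction and the sex comparisons in a fit of all 14 arrays. Standard errors and 95% intervals come from these fits. The adjustment was Benjamini-Hochberg over all 18769 probesets, with calls under 0.05. Labels call the arrays of a group biological replicates. Tables were handled with Python 3.11.15 and pandas 2.3.3. In simulated data on 18739 probesets, changes of log2 1 were found for 96 of 100 female, 44 of 50 male and 44 of 50 interaction effects. The simulated noise was independent, with an SD per probeset pooled over the groups. Most members varied more in females than in males and varied together, so these shares do not give the power for them.

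The members and all lists were chosen with earlier results of these data known. Named were all members, the gene most like each member, the 5 most like their mean, up to 4 called genes with the largest changes per list and sex, and sesB. Mal-A6, genes overlapping members, and tissue markers were named besides. Alternatives were quantile normalization, centring by array median, other samples in the fit, the replicate block, array weights, a robust prior, the methods' t-test, a filter on SD, fold thresholds and omission of arrays. Reference sequences were not used here.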

Additional observations from a re-analysis of the deposited data

Results flagged for a closer look

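For 4 members the effect of sesB1 in females differed from that in males by the test of the interaction itself (limma, adjusted p under 0.05). Mal-B1 differed by -2.35 on the log2 scale, with a log2 fold change of -0.49 in females and 1.86 in males. tobi differed by -1.44, with 1.07 in females and 2.52 in males, and its adjusted p of 0.037 came to between 0.0126 and 0.0893 when single arrays were left out. Mal-B2 differed by -0.552, with 0.64 in females and 1.19 in males. Mal-A5 differed by -0.375, with -0.31 in females and 0.07 in males. Of 20 groups of 4 sesB1 arrays, none held an array far enough from the others to pass Dixon's test. Chance alone passes about 1 in 20 independent groups, but the members share arrays and vary together, so these groups are not independent. Wild-type groups were not among them, so the test says nothing of wild-type female array 2.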

How the results depend on the processing

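Over the alternatives other than the Bonferroni adjustment, 929 member values kept their direction and side of the threshold, 54 lost a call, 23 gained one and 14 changed sign, none of which was past the threshold afterwards. In males the 9 higher members remained under each alternative but the methods' t-test with Bonferroni, which called 0 in either sex. With Benjamini-Hochberg that test called 4 higher and 1 lower in females and 10 higher in males. The paper names the t-test and Bonferroni for its experiments in general and does not say which test filtered the arrays. These counts are therefore not what the paper's own array filter would give. In females the 5 higher and 1 lower became 3 and 0 after quantile normalization and 3 and 0 at 2-fold, with 0 lower at 1.5-fold, and 4 to 6 higher and 0 to 1 lower without single arrays. The interaction's 0 higher became 1 with array weights and 1 without both wild-type arrays numbered 2, and its 4 lower became 2 at 1.5-fold and 2 at 2-fold. Without single arrays it was 0 to 1 higher and 2 to 6 lower.

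In wild-type flies the 2 members higher in females became 1 at 2-fold, and the 2 lower became 0 after quantile normalization, 0 without the 4 arrays with transcripts of the other sex, 1 at 2-fold and 0 to 3 without single arrays. In sesB1 flies the 1 higher became 0 at 1.5-fold and 0 at 2-fold, and the 5 lower became 1 after quantile normalization, 1 without those 4 arrays, 2 at 2-fold and 3 to 6 without single arrays.

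Values that changed sign after quantile normalization were Mal-A5 in males (-0.00179), Mal-A3 and Mal-A4 for the interaction (-0.13 and -0.23) and for the sexes in wild type (0.26 and 0.44). For the sexes in wild type, Mal-A7 was -0.0188 with centring by array median, -0.045 without wild-type male array 1, -0.24 to 0.34 over all omissions of single arrays (-0.24 without wild-type female array 2) and -0.0608 without both arrays numbered 2, and tobi was -0.011 to 0.75 over such omissions, the lowest without wild-type female array 2. For the sexes in sesB1, Mal-A2 was 0.0783 without the 4 arrays, Mal-A3 -0.0411 with centring by array median and -0.18 to 0.31 without single arrays, and Mal-A4 -0.19 to 0.38, both lowest without sesB1 female array 3. The cause was not tested.

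Same-numbered arrays did not deviate together over all probesets (r from -0.196 to 0.137 over 13 pairs). This check cannot decide whether they share anything in a small set of genes such as the members. With the number as a replicate block, females had 6 higher and 0 lower members, with Mal-A5 at -0.30 (adjusted p = 0.0668) and tobi at 1.28 (adjusted p = 0.039), and no other call of a member changed. Each member has 1 probeset, so no mean of probesets applied. Omitting both wild-type arrays numbered 2 was chosen after seeing the data. Array numbers limit precision, and signal over background is unknown.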
